A study of Mus musculus with 22 samples.

Results

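The 42 genes described here act in DNA replication and S phase, the part of the cell cycle in which the genome is copied. They were chosen by symbol from a list of 8 functional roles, and all 42 were found among the 24197 RefSeq genes of the authors' deposited table. The RNA was poly(A) RNA of nuclei isolated from the livers of outbred CD-1 (ICR) mice aged 7 weeks. Male and female mice were given TCPOBOP at 3 mg/kg, an agonist of the nuclear receptor CAR, or vehicle (1% DMSO in corn oil), and livers were taken 3 h or 27 h later. A further set of males was given PCN at 50 mg/kg, an agonist of the nuclear receptor PXR, or the same vehicle, and livers were taken after 3 h. Each of the 10 groups was a set of pools of nuclear RNA, with 2 pools per group in the TCPOBOP set and 3 in the PCN set. A pool joined 4 livers at 3 h and 3 livers at 27 h. The table holds 1 mean FPKM (fragments per kilobase of gene, scaled to library size) per group and no value per pool, so the spread between pools cannot be printed, and significance rests on the authors' adjusted p-values alone. A gene is called raised or lowered here where that adjusted p was below 0.05.

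A replication origin is licensed when the origin recognition complex, Cdc6 and Cdt1 load the MCM2 to MCM7 helicase, and it fires when Cdc45 and the GINS complex join that helicase. Polymerase alpha with primase starts each strand, and polymerases delta and epsilon extend it on the PCNA clamp that replication factor C loads. Fen1 trims the fragments of the lagging strand and Lig1 joins them. Most of these genes are targets of the E2F transcription factors and are little expressed in the resting hepatocytes of adult liver, and TCPOBOP is known as a mitogen for mouse hepatocytes. In bulk liver RNA, more cells in S phase and more transcript per cell cannot be told apart.

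Depth was estimated from the steps between low FPKM values of short genes. It came to between 25400000 and 46700000 fragments for a TCPOBOP set pool, and for a PCN set pool to between 19000000 and 31800000. One fragment in a gene of 1 kb was thus worth 0.0214 to 0.0394 FPKM in a TCPOBOP set pool. The labelled sexes matched their RNA, since Xist stood at 122 to 178 mean FPKM in the 4 female groups and at 0.0473 to 0.118 in the 6 male groups. Albumin (Alb), made by hepatocytes, was between 333 and 1148 mean FPKM over the 10 groups.

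Promoter sequences of 6 genes are shown because replication genes are known as E2F targets, and the 6 differ in their calls. They are the 250 bases before the annotated start in RefSeq on GRCm38.p6, each written 5′ to 3′ on the strand of its gene. Capitals mark exact matches, on either strand, to an E2F motif in any of its forms TTTCCCGC, TTTCGCGC, TTTGCCGC and TTTGGCGC, and neighbouring matches can overlap. Mcm6 (chr1:128359706-128359955 (- strand)) and Mcm5 (chr8:75109259-75109508 (+ strand)) code for helicase subunits, Cdc6 (chr11:98907901-98908150 (+ strand)) for the helicase loader and Hells (chr19:38930740-38930989 (+ strand)) for a chromatin remodeller. All 4 were raised at 27 h in both sexes. Mcm7 (chr5:138171884-138172133 (- strand)), another helicase subunit, was not called at 27 h in either sex, and Chaf1b (chr16:93883651-93883900 (+ strand)), a subunit of the histone chaperone CAF-1, was already raised at 3 h.
Mcm6: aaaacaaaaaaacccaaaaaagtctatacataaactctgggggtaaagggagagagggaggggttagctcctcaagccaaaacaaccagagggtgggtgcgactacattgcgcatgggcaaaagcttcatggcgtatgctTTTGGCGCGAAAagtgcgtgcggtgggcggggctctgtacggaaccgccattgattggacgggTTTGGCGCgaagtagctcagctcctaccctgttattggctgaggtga
Mcm5: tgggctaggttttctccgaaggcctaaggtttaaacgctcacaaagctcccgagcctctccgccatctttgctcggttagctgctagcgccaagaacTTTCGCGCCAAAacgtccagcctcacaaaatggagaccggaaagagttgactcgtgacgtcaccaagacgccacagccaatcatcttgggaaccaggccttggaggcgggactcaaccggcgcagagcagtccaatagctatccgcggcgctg
Cdc6: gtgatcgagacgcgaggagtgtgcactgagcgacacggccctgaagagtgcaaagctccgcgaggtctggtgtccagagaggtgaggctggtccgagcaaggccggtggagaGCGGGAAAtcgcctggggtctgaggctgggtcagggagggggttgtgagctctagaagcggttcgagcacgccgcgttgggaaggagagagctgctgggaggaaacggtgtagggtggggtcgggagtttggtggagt
Hells: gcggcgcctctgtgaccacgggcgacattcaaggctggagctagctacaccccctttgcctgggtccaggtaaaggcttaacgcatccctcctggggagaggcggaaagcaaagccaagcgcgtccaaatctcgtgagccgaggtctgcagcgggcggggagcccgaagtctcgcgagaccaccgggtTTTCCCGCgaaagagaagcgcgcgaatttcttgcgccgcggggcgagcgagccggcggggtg
Mcm7: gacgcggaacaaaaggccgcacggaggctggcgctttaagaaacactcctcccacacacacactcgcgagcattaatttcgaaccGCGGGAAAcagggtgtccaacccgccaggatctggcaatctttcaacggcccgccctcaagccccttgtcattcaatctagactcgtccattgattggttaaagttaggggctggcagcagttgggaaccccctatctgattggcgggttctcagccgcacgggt
Chaf1b: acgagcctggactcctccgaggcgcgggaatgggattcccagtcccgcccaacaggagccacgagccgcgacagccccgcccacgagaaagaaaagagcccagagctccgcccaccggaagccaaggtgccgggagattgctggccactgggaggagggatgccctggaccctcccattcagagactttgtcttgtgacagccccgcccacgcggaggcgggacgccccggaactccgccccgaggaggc
The Mcm6 window holds 3 matches and the Mcm5 window 2, in both cases including an overlapping pair on opposite strands. Cdc6, Hells and Mcm7 hold 1 match each, and the Chaf1b window holds none of these letters. Mcm7 has 2 annotated starts, of which the outermost is shown, and the window of the other start holds no match. Of the 35 members with a window in the RefSeq table, 11 (31.4%) held a match, against 583 of 27025 genes (2.16%). The 6 windows shown thus hold a match more often than the members do. Of the raised members without a match only Chaf1b is shown, and Mcm2, Mcm3 and Pcna are among those left out. A match was found in 7 of 21 members (33.3%) that were raised at 27 h in either sex and in 4 of 14 (28.6%) that were not. The CCAAT box (CCAAT, either strand), another promoter element common in cell cycle genes, was present in 20 of the 35 members (57.1%) and in 37.5% of all genes.

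The first question was whether TCPOBOP moves replication genes within 3 h. A call was made for 1 of the 42 in each sex, and this was the same gene, Chaf1b. Nothing is read from a count of 1, and members without a call are not shown to be unchanged. In males the authors' deposited table called 1 member raised and none lowered, where 0.612% of all genes were raised and 0.256% lowered. In females it likewise called 1 member raised and none lowered, beside 1.26% and 0.839% of all genes. Among genes at 1 FPKM or more in the vehicle or treated group, 1.33% were raised in males and 2.67% in females, and Chaf1b is below that level in both. The median log2 ratio of the 42 was 0.07 in both sexes, against 0.00 for these expressed genes in males and -0.02 in females.

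Chaf1b (NM_028083, mm9 chromosome 16, 93884146 to 93906351) stood at a mean of 0.174 FPKM in male 3 h vehicle pools and 0.697 FPKM after TCPOBOP. In females it stood at 0.165 FPKM in vehicle and 0.622 FPKM after TCPOBOP. These are rises of 3.89-fold (adjusted p = 3.40e-05) and 3.95-fold (adjusted p = 0.000294) by the authors' deposited table. The 27 h means were 0.293 and 1.19 FPKM in males and 0.425 and 1.80 FPKM in females. The rises of 4.08-fold in males (adjusted p = 3.00e-09) and 4.36-fold in females (adjusted p = 1.17e-05), again from the authors' deposited table, were thus close to those at 3 h. Each of the 4 treated means lay above all 5 vehicle means of the gene, the highest of which was 0.425 FPKM. After PCN the gene went from 0.167 to 0.287 FPKM, a 2.01-fold difference that was not called (adjusted p = 0.116) in the authors' deposited table.

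Thymidine kinase 1 (Tk1), which salvages thymidine for DNA synthesis, came near a call at 3 h. Its mean went from 4.88 to 9.42 FPKM in males (1.92-fold, adjusted p = 0.0561) and from 5.95 to 11.5 FPKM in females (2.02-fold, adjusted p = 0.0654), where the authors' deposited table gives no call. Both treated means lay below the 27 h vehicle mean of the same sex, 17.1 FPKM in males and 65.8 FPKM in females. Of the other members, Orc1, the largest subunit of the origin recognition complex, had the highest ratio in 3 h females at 6.16-fold. That value starts from 0.0105 FPKM and was not called (adjusted p = 0.308) in the authors' deposited table. Adjusted p-values of the remaining members lay between 0.155 and 1 at this time in both sexes.

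**Figure D1:**
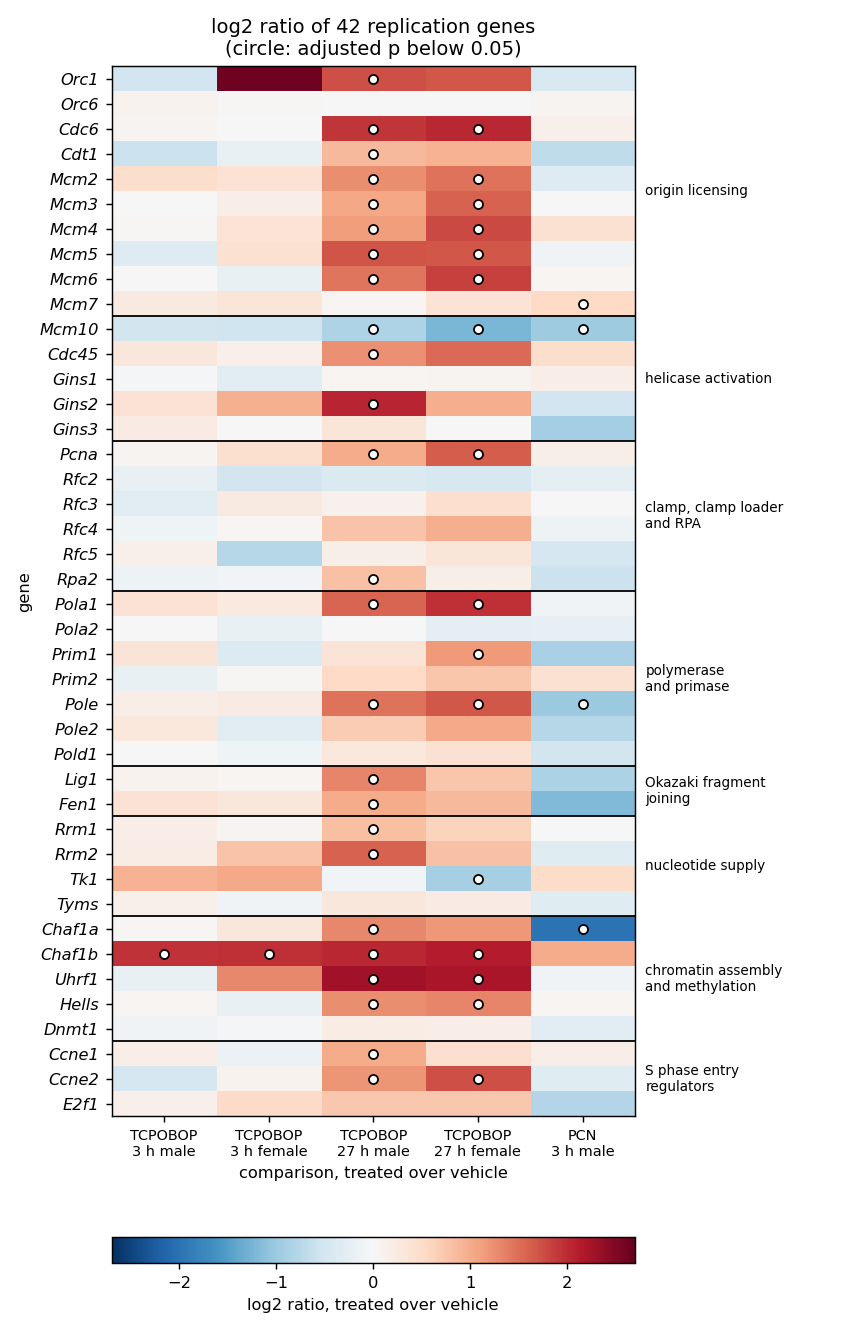
Each row is 1 of the 42 genes, grouped by role, and each column is 1 comparison; colour gives the log2 ratio of treated over vehicle from the authors' deposited table and a circle marks an adjusted p below 0.05. The 27 h male column holds 24 raised genes and 1 lowered, the 27 h female column 14 and 2, and the 3 h TCPOBOP columns 1 circle each, at Chaf1b.

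The second question was what the same dose had done after 27 h. In males 24 of the 42 members were raised and 1, Mcm10, was lowered by the authors' deposited table, in which 4.8% of all genes were raised and 3.65% lowered. The median member stood 1.92-fold above vehicle (log2 0.94), against a median log2 ratio of -0.01 for expressed genes. In females the table called 14 members raised and 2, Mcm10 and Tk1, lowered, beside 3.49% and 2.86% of all genes. Among the expressed genes 8.71% were raised and 7.61% lowered in males, and 6.98% and 6.01% in females. The median member stood 1.86-fold above vehicle (log2 0.90), against 0.00 for expressed genes.

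Origin licensing, the role with the most members, also had the most raised, 8 of 10 in males and 6 of 10 in females. Its share did not stand apart, since chromatin assembly and methylation had 4 of 5 in males and 3 of 5 in females. Okazaki fragment joining had 2 of 2 in males and 0 of 2 in females. The helicase subunit gene Mcm6 (NM_008567, mm9 chromosome 1, 130228168 to 130256233) went from a mean of 1.08 to 2.84 FPKM in males and from 0.796 to 2.77 FPKM in females. Its rises were 2.74-fold (adjusted p = 9.94e-14) and 3.62-fold (adjusted p = 0.00112) in the authors' deposited table. Mcm2, Mcm3, Mcm4 and Mcm5 rose as well, by 2.07-fold to 3.25-fold in males and 2.76-fold to 3.45-fold in females by that table. The same 5 of the 6 subunits of the helicase ring were thus called in both sexes. The sixth, Mcm7, was at 4.67 and 4.63 FPKM in males (ratio 1.03) and at 4.89 and 6.10 FPKM in females (ratio 1.30), without a call in the authors' deposited table. Cdc6 rose 3.84-fold in males and 4.13-fold in females in the authors' deposited table, from vehicle means of 0.0894 and 0.0900 FPKM. Cdt1, its partner in loading, and Orc1 were called in males, at 1.84-fold and 3.36-fold, and had ratios of 1.90-fold and 3.19-fold without a call in females in the authors' deposited table. Orc6, another origin recognition subunit, stood at 4.14 and 3.97 FPKM in males and at 5.11 and 4.84 FPKM in females, and the authors' deposited table gives adjusted p = 1 for both.

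Genes of helicase activation were mixed. Gins2 rose 4.18-fold (0.160 to 0.674 FPKM) and Cdc45 rose 2.34-fold (0.348 to 0.792 FPKM) in males in the authors' deposited table. In females the same genes had ratios of 1.97-fold and 2.88-fold that were not called (adjusted p = 0.390 and 0.102 in the authors' deposited table). Their GINS partners Gins1 and Gins3 had ratios of 1.01-fold to 1.26-fold over both sexes, with no call. Mcm10, which helps the helicase start, fell and is described further on.

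The clamp gene Pcna (NM_011045, mm9 chromosome 2, 132075022 to 132078916) went from 4.76 to 9.19 FPKM in males and from 2.90 to 8.79 FPKM in females. The rises were 1.99-fold (adjusted p = 1.04e-07) and 3.13-fold (adjusted p = 0.000636) in the authors' deposited table. None of the 4 members that load the clamp, Rfc2 to Rfc5, was called in either sex, and Rfc2 lay below vehicle in both (7.34 and 5.39 FPKM in males, 9.93 and 7.05 FPKM in females). Rpa2, a subunit of the protein that coats single-stranded DNA, rose 1.73-fold in males in the authors' deposited table and had a ratio of 1.12-fold with no call in females.

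Of the 7 polymerase and primase genes, 2 were raised in males and 3 in females. Pola1 and Pole, which code for the catalytic subunits of polymerases alpha and epsilon, rose 2.95-fold and 2.78-fold in males and 3.91-fold and 3.21-fold in females in the authors' deposited table. Their partners Pola2 and Pole2 and the second primase gene Prim2 were not called in either sex. Pola2 stood at 3.16 and 3.03 FPKM in males and at 4.50 and 3.58 FPKM in females, while Pole2 had ratios of 1.61-fold and 2.03-fold without a call in the authors' deposited table. Prim1, the catalytic subunit of primase, rose in females (2.10 to 4.54 FPKM, 2.22-fold, adjusted p = 0.0316) and was 1.28-fold with adjusted p = 0.517 in males in the authors' deposited table. Pold1, the catalytic subunit of polymerase delta, was not called in either sex.

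Lig1, which joins lagging strand fragments, and Fen1, which trims them, rose 2.48-fold and 2.00-fold in males in the authors' deposited table. In females they had ratios of 1.67-fold and 1.82-fold without calls in that table. Of the genes that supply deoxynucleotides, both subunits of ribonucleotide reductase rose in males. Rrm2, the subunit that limits the enzyme in S phase, went from 0.607 to 1.77 FPKM (3.01-fold, adjusted p = 1.71e-10 in the authors' deposited table), and Rrm1 from 0.902 to 1.54 FPKM (1.76-fold). In females they had ratios of 1.72-fold and 1.52-fold that were not called (adjusted p = 0.594 and 0.367 by the authors' deposited table). Tyms, which makes thymidylate, was not called in either sex.

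The largest rise among the 42 in males was that of Uhrf1, which recruits the maintenance methyltransferase Dnmt1 to newly copied DNA. Its mean went from 0.299 to 1.41 FPKM in males and from 0.505 to 2.21 FPKM in females, rises of 4.80-fold (adjusted p = 1.36e-13) and 4.58-fold (adjusted p = 0.000206) in the authors' deposited table. Dnmt1 itself stood at 1.96 and 2.17 FPKM in males and at 2.85 and 3.09 FPKM in females, with no call. Hells, a chromatin remodeller, rose 2.39-fold and 2.49-fold in the authors' deposited table. Chaf1a, the other CAF-1 member of the list, rose 2.45-fold in males and had a 2.26-fold ratio without a call in females, by the same table. Cyclin E2 (Ccne2), which drives entry into S phase with Cdk2, rose 2.28-fold in males and 3.34-fold in females, while cyclin E1 (Ccne1) rose 2.00-fold in males and stood at 1.37-fold without a call in females, in the authors' deposited table. E2f1 was not called in either sex, at 1.66-fold (adjusted p = 0.0541) in males and 1.65-fold (adjusted p = 0.300) in females in the authors' deposited table.

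**Figure D2:**
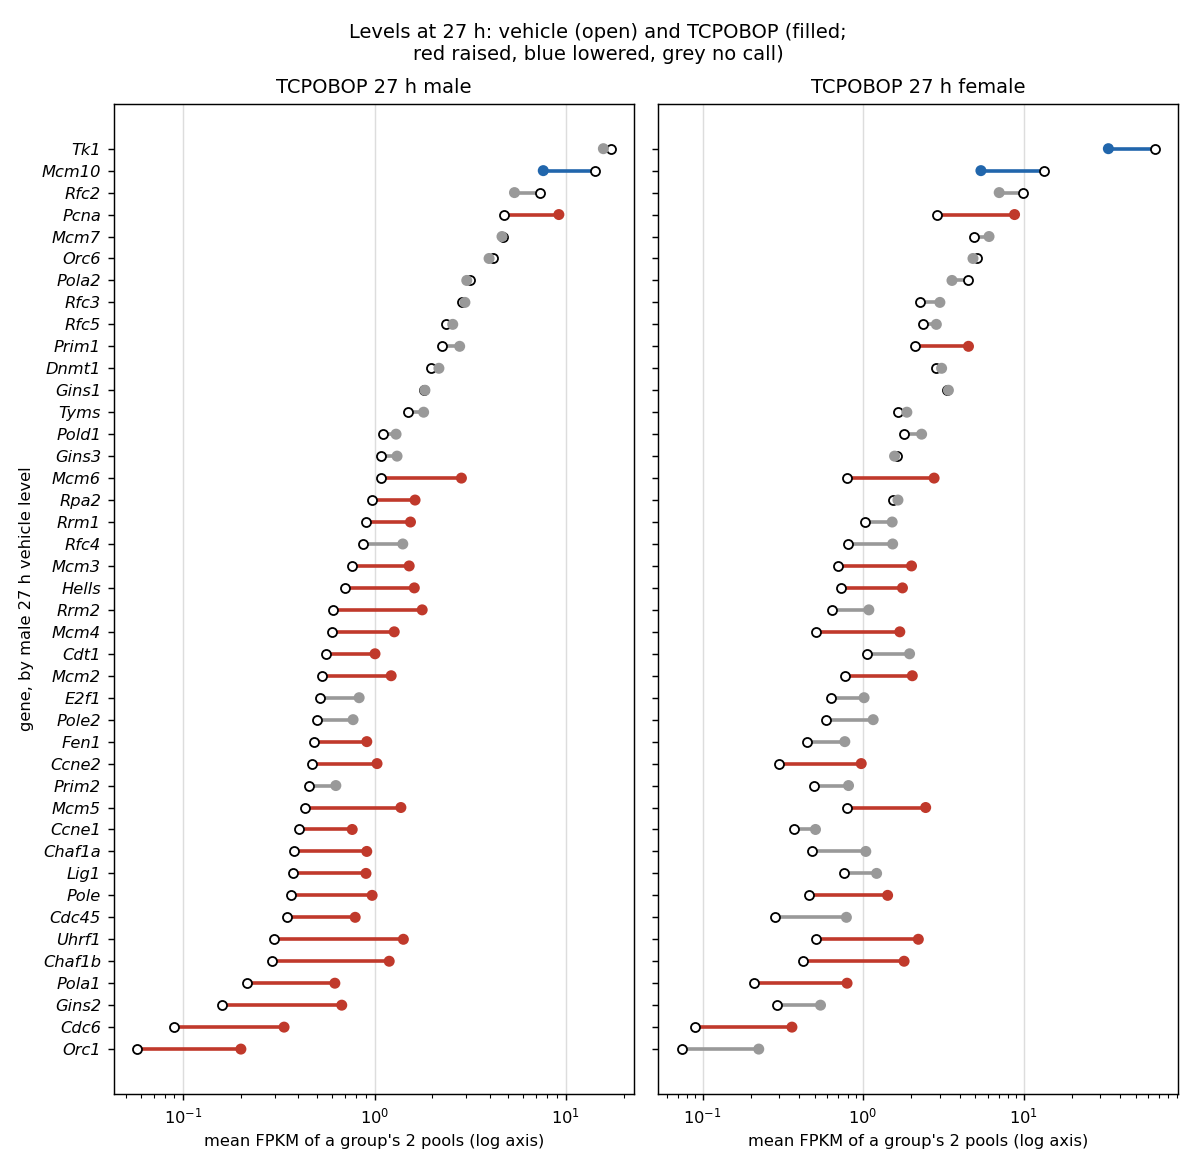
Each line joins the mean FPKM of the vehicle pools (open circle) to that of the TCPOBOP pools (filled circle) at 27 h on a log axis, with genes in the order of their male vehicle level; red marks raised, blue lowered and grey no call. In males 23 raised genes lie in the lower part of the order, from Orc1 at 0.0577 FPKM to Mcm6 at 1.08 FPKM, with Prim2, Pole2, E2f1 and Rfc4 uncalled among them, and Pcna at 4.76 FPKM is the raised gene above them.

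Of the raised members, 13 were raised in both sexes, which is 54.2% of the male and 92.9% of the female list, and Prim1 was called raised in females alone. Of all raised genes, 519 were raised in both sexes, which is 44.7% of the 1162 in males and 61.5% of the 844 in females, and no difference between these shares was tested. All 11 members called in males alone had a ratio above 1 in females too, with a median log2 ratio of 0.87 there and a range of 0.16 to 1.67. The log2 ratios of the 42 genes in the 2 sexes had Pearson r = 0.87 and Spearman rho = 0.85 across genes, which are not independent replicates, and the comparisons share no pools. A difference between the sexes was not tested, since it needs values per pool.

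The 27 h vehicle was then replaced by 3 h vehicle pools of the same sex. All 24 male and all 14 female rises at 27 h kept their direction. The centred log2 quotients of the raised members ran from 0.40 to 2.61 in males and from 0.94 to 3.57 in females. This outcome was nearly fixed for most members, since 35 in males and 34 in females were lower in the 3 h vehicle. Only a raised member with a higher 3 h vehicle could readily lose its rise. The largest such gaps were those of Ccne1 in males and Pcna in females. Their centred log2 quotients of 27 h over 3 h vehicle were -0.45 and -0.72. Both genes still kept a rise, at 0.40 and 0.94. The male fall of Mcm10 was kept too, while neither female fall was.

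Most of the members that rose were those with little transcript. Of the 27 members with a mean below 1 FPKM over all 10 groups, 22 were raised in males and 11 in females, with median log2 ratios of 1.22 and 1.17. Of the 15 members at 1 FPKM or more, 2 (Mcm6 and Pcna) were raised in males and 3 (these and Prim1) in females, with median log2 ratios of 0.11 and 0.23. Among all genes of 0.1 to 1 FPKM by the same mean, 8% were called raised in males and 3.27% in females, and among genes of 1 FPKM or more 7.88% and 6.93%. Sorting by the 3 h vehicle level of the same sex, which uses pools outside the 27 h comparisons, placed 23 of 29 members below 1 FPKM among the raised in males and 1 of 13 at or above it. In females that sorting gave 12 of 29 and 2 of 13. By that level, 7.61% of all genes of 0.1 to 1 FPKM and 7.82% of those at 1 FPKM or more were raised in males, and 3.45% and 6.7% in females. The low class of all genes starts at 0.1 FPKM, while that of the members has no floor. It holds members below 0.1 FPKM, such as Orc1 and Cdc6 by the 3 h vehicle level. The gain in FPKM was also larger in the low members, with a median of 0.529 against 0.0954 in males and 0.558 against 0.241 in females under the first sorting. Across the 42 genes the Spearman rho of level with log2 ratio was -0.77 in males and -0.63 in females, and every level holds the pools of the ratio among its 10 groups.

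**Figure D3:**
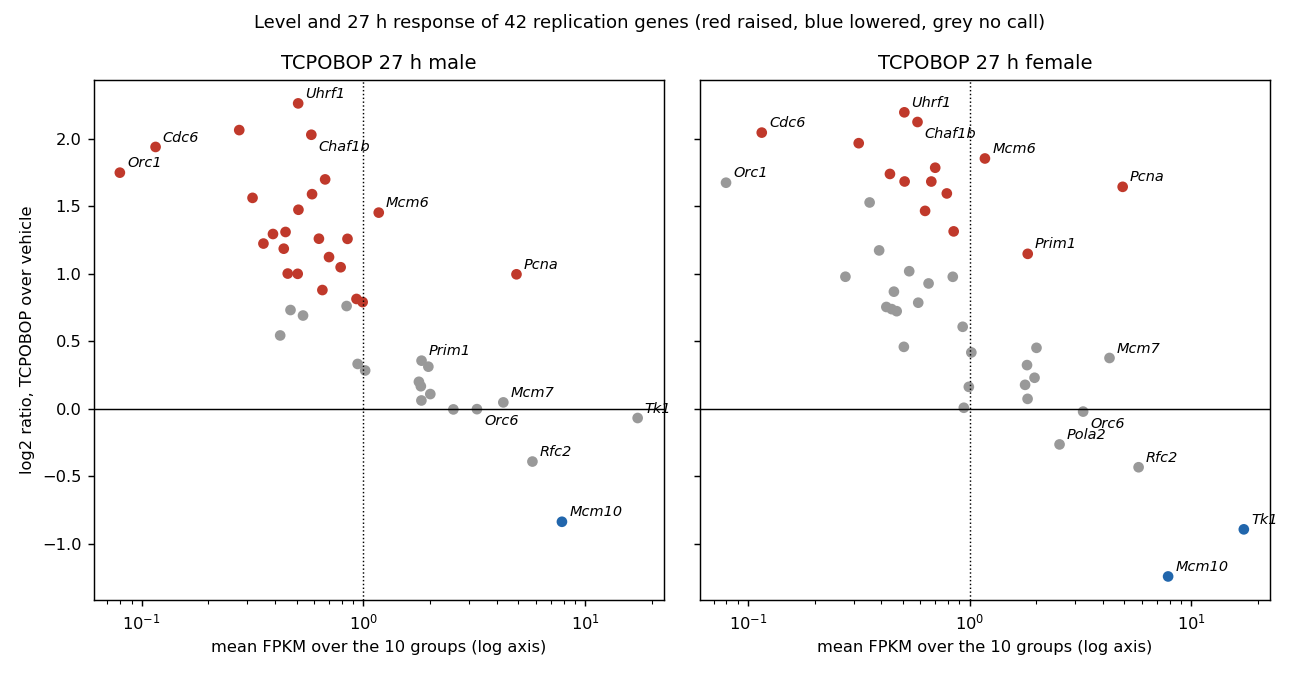
Each point is 1 of the 42 genes, with its mean FPKM over the 10 groups on a log axis and its log2 ratio at 27 h on the other; the dotted line is at 1 FPKM, and red marks raised, blue lowered and grey no call. Left of the dotted line 22 of 27 genes are red in males and 11 of 27 in females, and right of it 2 and 3 of 15.

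Mcm10 was called lowered at 27 h in both sexes and Tk1 in females. Mcm10 (NM_027290, mm9 chromosome 2, 4911770 to 4933837) had the second highest mean level of the 42, at 7.87 FPKM over the 10 groups. In males it fell from 14.1 to 7.62 FPKM at 27 h (1.79-fold, adjusted p = 0.000186) and after PCN from 7.33 to 3.37 FPKM (1.93-fold, adjusted p = 3.31e-05), as the authors' deposited table gives it. In females it fell from 13.3 to 5.43 FPKM at 27 h (2.37-fold, adjusted p = 4.70e-06 by the authors' deposited table). At 3 h the means were 13.4 and 9.59 FPKM in males and 2.68 and 1.77 FPKM in females, with ratios of 1.41-fold and 1.45-fold downward that the authors' deposited table does not call. All 5 treated means were thus below their own vehicle mean. The 5 vehicle means were not alike, however, since the female 3 h vehicle pools held 2.68 FPKM and the female 27 h vehicle pools 13.3 FPKM. Set against the female 3 h vehicle pools, the female 27 h TCPOBOP pools were higher by a centred log2 quotient of 0.89.

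Tk1 (NM_009387, mm9 chromosome 11, 117676833 to 117687328) had the highest mean of the 42, at 17.3 FPKM over the 10 groups. Its female call at 27 h went from 65.8 FPKM in vehicle to 33.8 FPKM after TCPOBOP (1.86-fold lower, adjusted p = 0.00432) in the authors' deposited table. In 27 h males Tk1 stood at 17.1 FPKM in vehicle and 15.7 FPKM after TCPOBOP (1.05-fold lower, adjusted p = 1 by the authors' deposited table). Set against 3 h vehicle pools of their own sex, the 27 h TCPOBOP pools were higher in Tk1 by a centred log2 quotient of 1.64 in males and 2.39 in females. The female 27 h vehicle value stands far above the others of this gene, which were 4.88 and 17.1 FPKM in TCPOBOP set males at 3 h and 27 h, 5.95 FPKM in females at 3 h and 3.78 FPKM in PCN set males. Tk1 overlaps 1 end of Afmid, a gene of tryptophan breakdown, over 96 bases of mm9 (117687233 to 117687328). The vehicle means of Afmid differed in the same direction, from 10.9 FPKM in male and 10.7 FPKM in female 3 h vehicle to 23.8 and 73.8 FPKM in the 27 h vehicles. The part of shared reads in the Tk1 values was not tested.

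**Figure D4:**
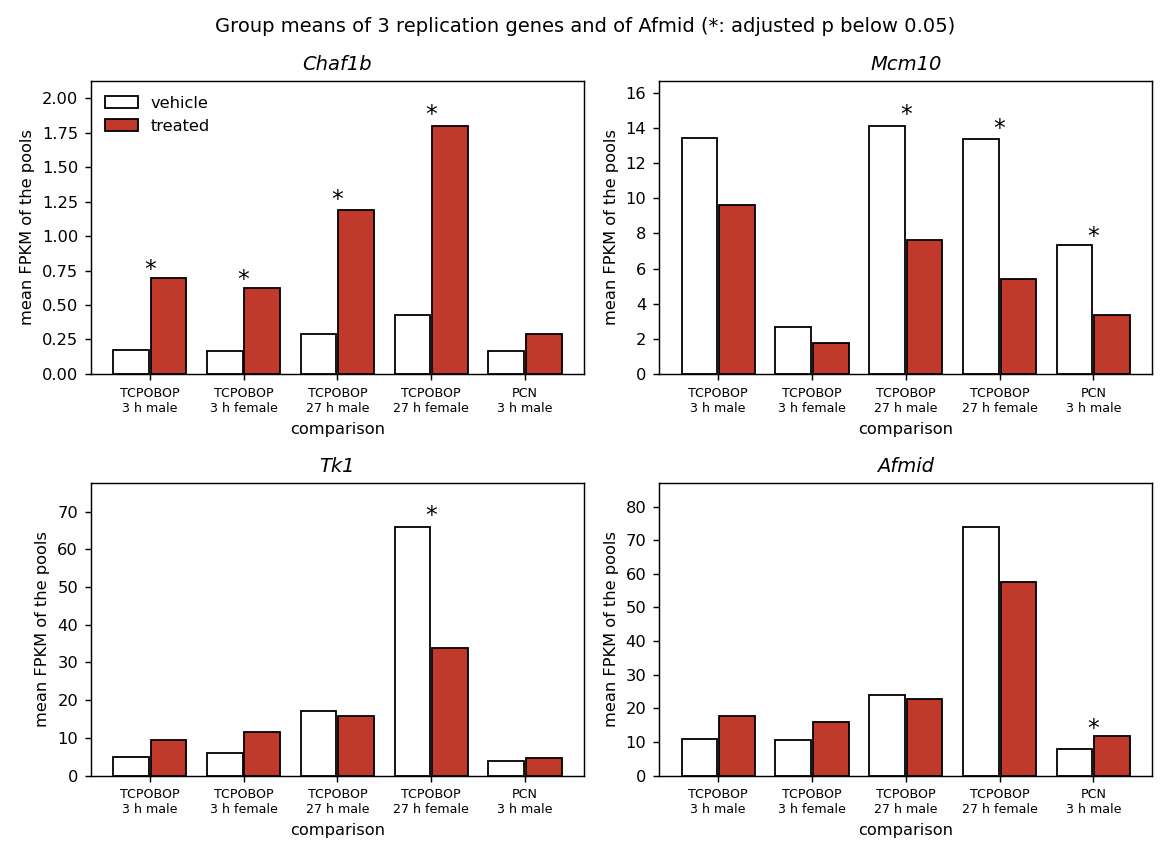
Bars give the mean FPKM of a group's pools (white vehicle, red treated; no spread is available) for Chaf1b, Mcm10, Tk1 and Afmid in each comparison, and a star marks an adjusted p below 0.05 in the authors' deposited table. Chaf1b is higher after TCPOBOP in all 4 comparisons, Mcm10 is lower than its vehicle in all 5, and Tk1 and Afmid both reach their highest mean, 65.8 and 73.8 FPKM, in the female 27 h vehicle pools.

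The vehicle groups were also set against each other. Centred on expressed genes, 41 of the 42 were within 2-fold between the sexes at 3 h, with Mcm10 lower in females by a log2 quotient of -2.25. At 27 h 41 were within 2-fold between the sexes, with Tk1 higher in females by 1.88. Between the 3 h and 27 h vehicle pools, 35 members were higher at 27 h in males and 34 in females, with median log2 quotients of 0.27 and 0.48. In females 6 members were at least 2-fold higher at 27 h, Tk1, Mcm10, Uhrf1, Lig1, Pold1 and Cdt1, and in males 1, Tk1. Time and the pools that carry it cannot be told apart in these quotients, and none was tested.

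Other genes of replication, taken as 3 lists of 68 symbols, were counted beside the members. In males 14 (20.6%) rose and 1 fell at 27 h, where 4.8% of all genes and 8.71% of expressed genes were raised. In females 8 (11.8%) rose and 1 fell, beside 3.49% of all genes and 6.98% of expressed genes raised. At 3 h 2 (2.94%) were raised in each sex and none was lowered, beside 0.612% of all genes raised in males and 1.26% in females. Of expressed genes 1.33% were raised in males and 2.67% in females, and nothing is read from a count of 2. E2f2, an activating member of the E2F family, was raised in all 4 TCPOBOP comparisons. Its means in vehicle and after TCPOBOP were 0.366 and 0.808 FPKM in 3 h males, 0.256 and 0.511 in 3 h females, 0.569 and 1.92 in 27 h males and 0.549 and 2.84 in 27 h females. The rises ran from 2.09-fold (adjusted p = 0.0130) in 3 h females to 5.48-fold (adjusted p = 8.14e-14) in 27 h females in the authors' deposited table. Each treated mean was above its own vehicle, and the 27 h vehicles lay between the 3 h vehicles and the 27 h treated pools. The 3 h treated mean of females, 0.511 FPKM, lay below the female 27 h vehicle mean of 0.549 FPKM. That of males, 0.808 FPKM, lay above the male 27 h vehicle mean of 0.569 FPKM. The histone chaperone Asf1b rose 5.67-fold in males and 7.43-fold in females at 27 h, and the checkpoint gene Clspn rose 4.54-fold in males, in the authors' deposited table. E2f6, a repressor of the E2F family, rose 1.79-fold in 27 h females from 5.23 to 9.02 FPKM in that table. Gmnn, whose product blocks Cdt1, rose 2.54-fold in 3 h males and 1.71-fold in 27 h males in that table, without a call in females. Its 3 h treated mean in males, 1.72 FPKM, was no higher than the male 27 h vehicle mean of 1.72 FPKM. Cdkn1a, a CDK inhibitor gene, rose 2.07-fold in 3 h females and fell 2.62-fold in 27 h males by the authors' deposited table.

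Markers of other liver cells were summed beside the 27 h response. The summed mean FPKM of 8 Kupffer cell markers went from 69.3 to 74.1 in males and from 105 to 77.6 in females. That of 6 sinusoidal endothelial markers went from 93.8 to 94 in males and from 67.9 to 64.6 in females. A sum mostly follows its most abundant markers. The median log2 ratios were 0.28 and -0.25 for the Kupffer cell markers in males and females, and 0.19 and 0.20 for the endothelial markers. Sums of 6 stellate cell markers were 33.8 and 40.9 in males and 21.6 and 25.2 in females, and sums of 6 lymphocyte markers 5.51 and 4.99 in males and 7.33 and 5.47 in females. Of 4 bile duct markers the sums were 1.5 and 1.66 in males and 1.31 and 1.64 in females. Of 5 erythroid markers they were 14 and 13.5 in males and 6.67 and 6.42 in females, with Hbb-b1 listed at 0 in all 4 of these groups. In males Emr1, Kdr and Pecam1 were raised among these markers, and in females Alas2 was raised and Klf1 lowered. The part of other cell types in the rises of the replication genes was not tested.

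PCN was examined after 3 h in males. The authors' deposited table called 1 member raised and 3 lowered, where 5.22% of all genes were raised and 4.55% lowered (12.9% and 9.41% of expressed genes), and the median log2 ratio of the 42 was -0.23, against 0.03 for expressed genes. Members were thus called about as often as all genes, and nothing is read from the count. In all, 27 members had a ratio below 1 and 15 above. Mcm7 rose 1.46-fold from 2.32 to 3.01 FPKM (adjusted p = 0.00553 in the authors' deposited table). Chaf1a fell 3.96-fold from 0.25 to 0.0617 FPKM (adjusted p = 0.000271), Pole fell 2.02-fold from 0.237 to 0.110 FPKM (adjusted p = 0.0481) and Mcm10 fell as given above, in the authors' deposited table. E2f2 fell 3.34-fold, from 0.268 to 0.0720 FPKM (adjusted p = 4.31e-05), and Cdkn1a rose 4.80-fold, from 1.72 to 7.21 FPKM (adjusted p = 1.01e-14), in the authors' deposited table. Of the other 68 pathway genes 3 were raised, Cdkn1a, E2f4 and the polymerase epsilon subunit Pole4, and 7 were lowered (4.41% and 10.3%, beside the shares of all genes given above). Summed lymphocyte markers went from 2.79 to 1.38 FPKM in the same comparison, with Cd79a lowered, and their part in these falls was not tested. PCN and TCPOBOP at 3 h differ in library type, number of pools and depth, and a difference between the compounds was not tested.

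In all, 28 of the 42 members were called in at least 1 comparison. The other 14 were Orc6, Gins1, Gins3, Rfc2, Rfc3, Rfc4, Rfc5, Pola2, Prim2, Pole2, Pold1, Tyms, Dnmt1 and E2f1. Adjusted p-values above the threshold do not show that these genes were unchanged, and Rfc4, Prim2, Pole2 and E2f1 had ratios between 1.46-fold and 2.03-fold in both 27 h comparisons of the authors' deposited table. Besides Tk1, 7 members overlap another gene of the table in mm9, among them Ccne2 with Ints8 over 5622 bases and Rfc4 with Eif4a2 over 185 bases, and Mcm7 holds 3 microRNA genes.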

How the data were processed

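Poly(A) RNA from liver nuclei was sequenced as paired ends in 22 pools. Libraries of the TCPOBOP set are stranded and those of the PCN set unstranded per the labels, which name a directional kit for both. Per the submitters' processing notes, TopHat2, HTSeq 0.6.1p1, featureCounts 1.4.6-p5, edgeR and build mm9 were used, with no role given. Counting over gene bodies is named in the legend deposited with the table. Per the file headers, the authors deposited for each of 5 comparisons the ratio of treated over vehicle, the mean FPKM of each group and an adjusted p-value. The authors' normalized ratio can differ from the quotient of the FPKM means.

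No value per pool was used, so no SD or test across pools was computed, and a call is the authors' adjusted p below 0.05, with its direction from their ratio. An edgeR fit, meant for the case of counts per pool, was not run. Alternatives were a stricter p, a minimum fold, filters on low FPKM, added pseudocounts, centring and the vehicle of the other time. Members, lists and motifs were chosen with earlier results of these data known. Background shares cover all 24197 genes, since the genes the authors tested are not given in the sources used here. Quotients between vehicle groups and across times are log2 of mean FPKM with 0.1 added, less the median of genes that reached 1 FPKM in 1 of the groups. Gene starts in the table count from 0 (928 of 943 microRNA hairpins then have their RefSeq length) and are printed from 1. Depth estimation was tested on simulated data. Any member could be named; of the other pathway genes, the rule named the 3 called genes with the smallest adjusted p per comparison. The male 27 h fall of Cdkn1a, the male 27 h values of Gmnn and the name of E2f4 were added after their values were seen. Single values of some marker genes are not reported here. Python 3.11.15, pandas 2.3.3, NumPy 2.4.6 and matplotlib 3.10.9 were used.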

Additional observations from a re-analysis of the deposited data

How the results depend on the processing

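No paired analysis was possible because the deposited table gives 1 mean per group, so pool numbers could not enter a fit and no pool could be left out. Of 38 alternative counts of called members that could move, 29 stayed within 1.5 times the main count and 9 did not. A further 10 belong to the lowered members at 3 h after TCPOBOP, whose main count of 0 cannot move since the alternatives only remove members. With at least 1 FPKM in either group required, the raised members were 14 in 27 h males and 0 in both 3 h TCPOBOP comparisons, where Chaf1b lies below that level, and the lowered members after PCN were 1. A mean of at least 0.5 FPKM over all groups left 15 raised in 27 h males. These filters count fewer members and change no p-value. A 2-fold minimum left 0 lowered in 27 h males, 1 in 27 h females and 0 raised after PCN. With female 3 h vehicle as the reference, 0 of the 2 female falls at 27 h kept their direction; the cause was not tested. An added 0.5 FPKM shrank the 27 h median log2 ratio to 0.51 in males and 0.43 in females and to -0.13 after PCN. Depth limits members with few fragments most, and the number of fragments depends on gene length as well as on FPKM. Orc1 and Cdc6 had the lowest mean FPKM over the 10 groups, at 0.0797 and 0.115.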

Other observations

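Male 3 h vehicle pools were sequenced in both sets, which allows levels to be set side by side across library types, with no comparison intended by the design. Centred on expressed genes, which were lower in the PCN set by a median log2 quotient of -0.69, 39 of the 42 replication genes were within 2-fold. Tyms stood at 4.86 mean FPKM in the PCN set and 1.05 in the TCPOBOP set, a centred log2 quotient of 2.80. Gins2 stood at 0.315 and 0.0919 FPKM (1.80) and Ccne2 at 0.479 and 0.290 FPKM (1.26). Ccne2 and Gins2 overlap a neighbour in the table, Ints8 and Gse1, and Tyms overlaps none. Library type, animals and depth all differ between the sets and cannot be told apart.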
